A study of Bos taurus with 7 samples.

Results

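The 7 libraries of isolated bovine follicles carry a number in their library name, and this number divides them into 2 classes that cross the follicle stages. Numbers below 40 belonged to 3 libraries, namely primary follicle (PF) replicate 1 (number 24), PF replicate 2 (34) and secondary follicle (SF) replicate 1 (26). Numbers above 40 belonged to 4 libraries, namely PF replicate 3 (46), PF replicate 4 (47), SF replicate 2 (48) and SF replicate 3 (49). These libraries are abbreviated PF1 to PF4 and SF1 to SF3 here. Each class holds both stages, so that the difference between the classes could be estimated beside stage, but only SF1 represents secondary follicles below 40. What the number stands for is not given by the labels, and the animals, the day of collection and every step of the preparation that may run with it cannot be told apart.

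All 7 libraries were made from *Bos taurus* follicles at the T0 time point, and the labels name no genotype, agent or dose that differed between the classes. According to the study's methods the ovaries came from Holstein Friesian dairy cows in the second year of life, collected at an abattoir. Follicles were freed from the cortex mechanically, sorted by stage, kept for a short recovery in medium with insulin and FSH, and pooled, so that a library holds the oocytes and granulosa cells of many follicles. A PF has a single layer of granulosa cells around the oocyte, and an SF has more than one. In such bulk RNA, fewer cells of a type and less RNA per cell cannot be told apart. The labels do not say which animals contributed to which library, and the p-values therefore measure only the spread between these 7 pools.

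Much of what follows concerns genes that cells switch on quickly. Immediate early genes, such as *FOS* and *EGR1*, encode transcription factors and feedback regulators that are transcribed from preexisting factors without new protein synthesis, after growth factors, hormones or stress, and their mRNAs are short-lived. The unfolded protein response raises chaperones of the endoplasmic reticulum such as *HSPA5*, the heat shock response raises cytosolic chaperones, and the amino acid response acts through the transcription factor ATF4. In the ovary, *FOS*, *EGR1* and *NR4A* genes are also known as early targets of gonadotrophins in granulosa cells.

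The libraries had between 18788105 and 23764615 estimated read counts, and between 12188 and 13034 genes reached 1 TPM. Depth did not separate the classes, but the 10 most abundant genes took 2.69 to 4.40% of all estimated counts below 40 and 6.54 to 8.73% above 40, without overlap. *HSPA5* was among these 10 genes in all 4 libraries above 40 and in none below, and *ZFP36*, which destabilises AU-rich mRNAs, was among them in 3 libraries above 40 and in none below. PF4 stood apart from the other PF libraries, with Spearman correlations over genes of 0.816, 0.815 and 0.839 with PF1, PF2 and PF3, whereas PF1 and PF2 correlated at 0.912. Its summed TPM of 6 stromal fibroblast markers was 5842, against 213 to 604 in the other libraries. The study removed a PF library with the number of PF4 as an outlier. Each comparison was made over all 7 libraries and again without PF4.

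Library number separated many genes at a given stage. The calls of DESeq2 and edgeR, which rescale the counts of each library, leaned towards higher levels above 40. Genes whose TPM did not overlap leaned towards lower levels, but TPM is scaled otherwise. Over genes averaging 1 TPM or more, the median log2(TPM + 1) difference above minus below 40 was −0.28 in PF and −0.10 in SF. The part of scaling in the opposite leanings was not tested. With stage as a covariate, DESeq2 called 655 of 18810 genes higher above 40 (3.48%) and 309 lower (1.64%) at an adjusted p below 0.05. Without PF4, it called 580 of 19009 genes higher (3.05%) and 301 lower (1.58%). Both fits called 449 genes higher (2.41% of the 18639 genes tested in both) and 178 lower (0.955%), and these 627 genes were 65.0% of the calls over 7 libraries and 71.2% of those without PF4. Of all genes tested in both fits, 910 had TPM values above 40 that did not overlap those below 40 in the higher direction (4.88%) and 1069 in the lower direction (5.74%). Of the 449 genes called higher, 403 did not overlap, and 388 had counts in every library, with log2 fold changes whose median was 2.28 over 7 libraries and 2.16 without PF4. The median over all genes tested was 0.04 and −0.05 in these fits. With limma on log2(TPM + 1), the unadjusted p was below 0.05 for 849 genes higher and 1672 lower over 7 libraries, and for 746 and 1352 without PF4, although after adjustment it called 225 higher and 16 lower, and 244 and 20.

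The more conservative quasi-likelihood test of edgeR called 59 genes higher over 7 libraries (0.385% of 15320) and 4 without PF4 (0.0264% of 15137), and none lower in either fit. Before adjustment its p was below 0.05 for 1172 genes higher and 555 lower over 7 libraries, and for 975 and 498 without PF4. In simulated counts of the same size, where some genes were changed by known folds, the larger part of the DESeq2 calls fell on unchanged genes. There edgeR made no calls at all, and so missed the changed genes too. The simulation held no difference between stages, and it does not show which test is nearer the truth in these data. The edgeR counts are given beside those of DESeq2 for the main lists. When PF3 was left out together with PF4, so that the class difference rested on SF alone, DESeq2 called 326 genes higher, against 580 without PF4 alone.

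The 59 genes that edgeR called were all called higher by DESeq2 in both fits, and none of them overlapped between the classes. For the 55 of them with any TPM below 40, the lowest library above 40 exceeded the highest library below 40 by 1.81 times or more, with a median of 4.90 times. They included transcription factors, inhibitors of the cell cycle, feedback inhibitors of signalling, chaperones and RNA-processing factors besides genes outside these roles, and only 13 of the 59 were on any of the 49 gene lists used here. Those that edgeR also called without PF4 included *SERTAD1*, *CCNL1* and *IRF1*.

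*SERTAD1*, a co-regulator of E2F transcription factors that binds CDK4, had 34.4, 28.6 and 59.4 TPM below 40 and 1618, 1056, 1388 and 2603 TPM above 40, listed here and below in the order PF1, PF2 and SF1, then PF3, PF4, SF2 and SF3. The mean was 42.4 times higher above 40 in PF and 33.6 times higher in SF, with a log2 fold change of 5.47 ± 0.41 (SE) over 7 libraries and 5.57 ± 0.41 without PF4 (adjusted p = 5.4e-37 and 3.1e-38). Every library above 40 was thus at least 17.8 times the highest library below 40. *CCNL1*, a cyclin that works with splicing kinases, had 12, 13 and 21.5 TPM below 40 and 339, 188, 431 and 592 TPM above 40. Its means differed by 21.1 times in PF and 23.8 times in SF, with a log2 fold change of 4.67 ± 0.36 (SE) over 7 libraries and 4.85 ± 0.31 without PF4 (adjusted p = 3.4e-34 and 1.1e-49). The 2 stages therefore gave differences of similar size for this gene.

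*IRF1*, a transcription factor of the interferon response that is also induced early by other stimuli, had 10.3, 13.2 and 23.6 TPM below 40 and 183, 115, 391 and 294 TPM above 40, with a log2 fold change of 3.90 ± 0.31 (SE) over 7 libraries and 4.05 ± 0.27 without PF4 (adjusted p = 9.2e-33 and 1.2e-47). It was the only member of the interferon response list that was called higher, and no other member changed in both fits (1 of 22 tested, 4.55%), among them *MX1*, an antiviral GTPase, with 8.81, 18.7 and 40.6 TPM below 40 and 29.6, 17.4, 47.7 and 79.8 TPM above 40. *TOB1*, an antiproliferative protein that recruits deadenylases to mRNA, was among the 5 genes with the smallest edgeR p without PF4 and had 40.5, 48.6 and 56.6 TPM below 40 and 807, 509, 835 and 1573 TPM above 40. Its log2 fold changes were 4.30 and 4.49 (adjusted p = 1.5e-22 and 2.1e-28). For *SERTAD1*, *CCNL1*, *IRF1* and *TOB1* the 3 libraries below 40 were under the 4 above 40 in both stages, whereas *MX1* overlapped.

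**Figure D1:**
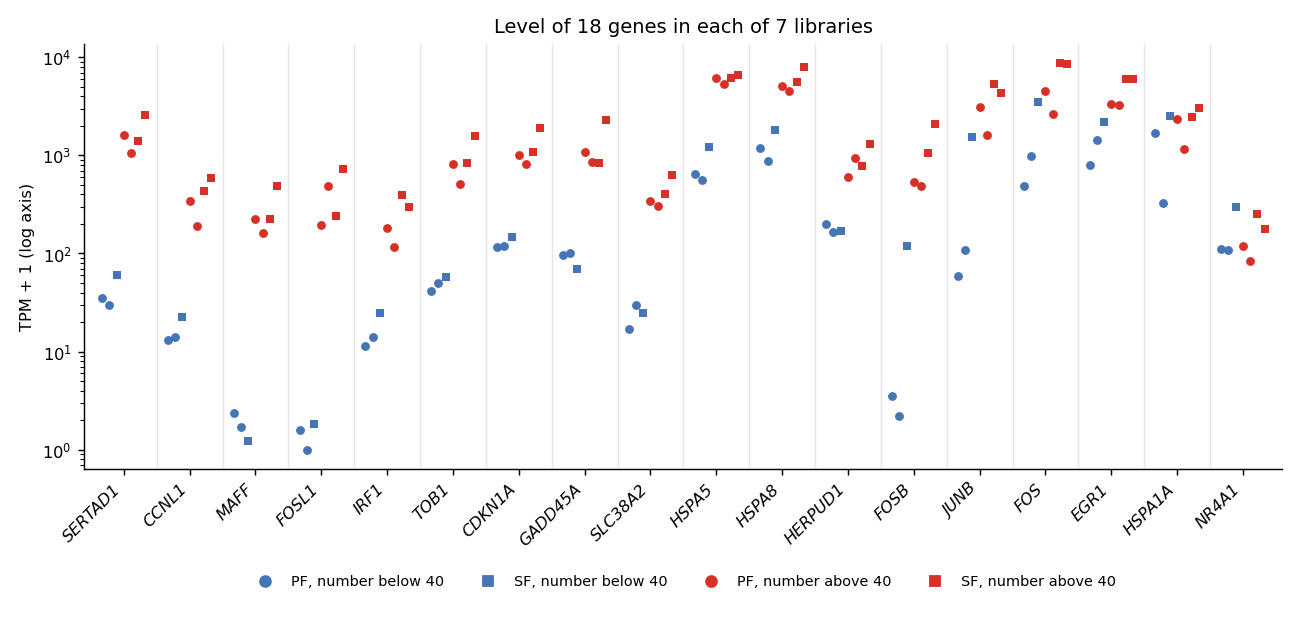
TPM + 1 on a logarithmic axis of 18 genes, chosen after their values were seen, in each of the 7 libraries, with libraries numbered below 40 in blue and above 40 in red, PF as circles and SF as squares. The red symbols lie above all blue symbols for most genes from *SERTAD1* to *JUNB*, SF1 lies near the red symbols for *FOS* and *JUNB*, and *HSPA1A* and *NR4A1* show no separation.

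The other genes called by edgeR are described here by role, a grouping made after their values were seen. Transcription factors among them included *FOSL1*, a partner of JUN, which had 0.568, 0 and 0.835 TPM below 40 and 194, 492, 240.1 and 729 TPM above 40, and *MAFF*, a small MAF factor, which had 1.34, 0.713 and 0.236 TPM below 40 and 223, 162, 223 and 492 TPM above 40. Both were close to 0 in all libraries below 40 and at 162 TPM or more in all above, and the log2 fold changes were 10 and 9.53 for *FOSL1* and 8.76 and 9.24 for *MAFF*. *KLF10*, *NFIL3*, *CSRNP1*, *NR4A3* and *ID2* belong to the same group. *ID2*, which blocks helix-loop-helix factors and is a target of BMP signalling, had 35.6, 41.2 and 84.0 TPM below 40 and 811, 423, 628 and 1044 TPM above 40.

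Regulators of the cell cycle of opposite action were among the calls. *CDKN1A*, which encodes the cyclin-dependent kinase inhibitor p21, had 116, 119 and 145 TPM below 40 and 1004, 812, 1075 and 1917 TPM above 40, with a log2 fold change of 3.32 ± 0.36 (SE) over 7 libraries and 3.43 ± 0.35 without PF4 (adjusted p = 1.6e-17 and 3.5e-19). *GADD45A*, a sensor of DNA damage and other stress that slows the cycle, had 96.1, 99.5 and 68.3 TPM below 40 and 1086, 859, 844 and 2298 TPM above 40, with log2 fold changes of 3.99 and 4.20. Its relatives *GADD45B* and *GADD45G*, as well as *TOB2*, were called too. *CCNE1*, which encodes cyclin E and promotes entry into S phase, had 5.62, 6.25 and 5.15 TPM below 40 and 27.5, 53.8, 35.2 and 60.8 TPM above 40, with means that differed by 6.85 times in PF and 9.32 times in SF. The classes did not overlap for any of these genes.

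Feedback inhibitors included *DUSP5*, a phosphatase of ERK, with 24.1, 37.1 and 58.2 TPM below 40 and 408, 168, 391 and 535 TPM above 40, and *ERRFI1*, which restrains the EGF receptor, with 14.3, 25.2 and 43.0 TPM below 40 and 185, 189, 246 and 643 TPM above 40. *ZC3H12A*, an endonuclease that degrades cytokine mRNAs, had 2.38, 7.07 and 4.21 TPM below 40 and 85.2, 62.3, 109.6 and 169 TPM above 40. These 3 genes had counts in every library below 40, and all 4 libraries above 40 were higher. Among genes for secreted proteins, *ADAMTS1*, a protease known from ovulatory follicles, had 10, 29.4 and 9.72 TPM below 40 and 255, 375, 97.2 and 141 TPM above 40. *SIRT1*, a deacetylase, and *JMJD6*, an RNA-associated oxygenase, were also called, with log2 fold changes of 2.28 and 2.28 and of 2.68 and 2.36.

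Some genes had no count in any library below 40. This was so for 25 of the 449 genes, and for 8 of the 10 that the naming rule placed first by fold change without PF4. *MARCHF3*, a membrane-bound ubiquitin ligase, had 0, 0 and 0 TPM below 40 and 30.2, 136, 18.7 and 70.7 TPM above 40, and without PF4 it was at least 420.4-fold higher above 40, taking 3 counts per library as the floor. *NR4A3*, an orphan nuclear receptor and immediate early gene, had 0, 0 and 0 TPM below 40 and 6.04, 13, 21.4 and 34.7 TPM above 40 and was at least 699-fold higher. *CYP1B1*, a cytochrome P450 that hydroxylates oestrogens, had 0, 0 and 0 TPM below 40 and 13.1, 37.8, 48.4 and 11.7 TPM above 40 and was at least 291-fold higher.

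The rest of these genes were lower in TPM or less even. *ACKR3*, a scavenging chemokine receptor, was at least 109-fold higher, with 0, 0 and 0 TPM below 40 and 20.3, 54.0, 6.34 and 7.23 TPM above 40. *TNFSF9*, a TNF family ligand, was at least 100.1-fold higher, and *PMAIP1*, the proapoptotic protein NOXA, at least 60.5-fold. *PMAIP1* had 0, 0 and 0 TPM below 40 and 15.2, 27.3, 6.06 and 4.44 TPM above 40. *PTX3*, a matrix protein of the cumulus, and *ARC*, a regulator of endocytosis, were detected in SF1 among the libraries below 40. *PTX3* had 0, 0 and 0.0677 TPM below 40 and 57.5, 29.9, 13.3 and 17.6 TPM above 40, and *ARC* had 0, 0 and 2.97 TPM below 40 and 75.8, 75.3, 64.9 and 214 TPM above 40. The named genes of this group were at 0 in PF1 and PF2, and *CXCL2* is described with the cytokines.

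Immediate early genes were the list with the largest share of members called. Of 34 members, 28 were called higher in both fits (82.4%) and none lower, and 27 did not overlap between the classes (79.4%). The median log2 fold change was 3.33 over 7 libraries and 3.54 without PF4, against 0.04 and −0.05 over all genes. The edgeR test called 5 of the members over 7 libraries and none without PF4, where its unadjusted p was below 0.05 for 31 members higher and none lower. The members took 0.495, 0.822 and 2.34% of the gene counts in PF1, PF2 and SF1 and 4.42, 2.95, 6.03 and 6.90% in PF3, PF4, SF2 and SF3. Leaving out one more library in turn gave 29 to 30 members called higher over 7 libraries and 18 to 28 without PF4, the lowest count being the one without PF3.

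AP-1 subunits, which pair as FOS and JUN proteins, were mostly higher above 40. *FOS* had 492, 983 and 3485 TPM below 40 and 4522, 2633, 8692 and 8452 TPM above 40, and because PF4 lay under SF1 the classes overlapped. Its log2 fold changes were 2.04 and 2.12 (adjusted p = 4.8e-04 and 3.1e-04), but without PF3 and PF4 the adjusted p rose to 0.24. *JUN* overlapped in the same way, with 152, 135 and 1240.1 TPM below 40 and 1802, 1112, 3554 and 3779 TPM above 40, and had log2 fold changes of 2.76 and 2.78 (adjusted p = 4.1e-06 and 1.4e-05). *FOSB*, a paralogue of *FOS*, had 2.5, 1.22 and 119 TPM below 40 and 533, 489.7, 1056 and 2104 TPM above 40, and *JUNB* had 57.4, 108 and 1538 TPM below 40 and 3106, 1608, 5344 and 4330.1 TPM above 40. For *FOSB* and *JUNB* the library SF1 was far above PF1 and PF2 but still under all libraries above 40. *EGR1*, a zinc finger factor induced by ERK signalling, had 803, 1441 and 2199.8 TPM below 40 and 3329.5, 3245, 6015 and 5988 TPM above 40, with a log2 fold change of 1.68 ± 0.34 (SE) over 7 libraries and 1.67 ± 0.34 without PF4 (adjusted p = 3.4e-05 and 6.8e-05).

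Further members were more cleanly divided. *ATF3*, a stress-induced repressor of the ATF family, had 2.68, 0.429 and 29.3 TPM below 40 and 307, 221, 326 and 703 TPM above 40. *IER5*, which modulates the heat shock factor, had 115, 106 and 297 TPM below 40 and 1261, 962, 1783 and 3218 TPM above 40, with a log2 fold change of 3.43 ± 0.38 (SE) over 7 libraries and 3.49 ± 0.38 without PF4 (adjusted p = 8.3e-17 and 8.9e-17). *KLF10*, a repressor induced by TGF-beta, had 10.1, 13.2 and 4.25 TPM below 40 and 141, 152, 218 and 472 TPM above 40, with log2 fold changes of 4.79 and 5.16 (adjusted p = 5.1e-13 and 7.4e-15). *GADD45B*, a stress-induced activator of p38 and JNK signalling, had 63.1, 122 and 135 TPM below 40 and 964, 685, 913 and 1120.2 TPM above 40. None of these 4 genes overlapped between the classes.

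SF1 held an intermediate place for this list. Of the 34 members, 25 were higher in SF1 than in both PF1 and PF2, and 27 were higher in PF3 and PF4 than in SF1. Within stage the order was clearer, since 32 members were higher in PF3 and PF4 than in PF1 and PF2, and 32 were higher in SF2 and SF3 than in SF1. The mean log2(TPM + 1) over the list ranged from 3.99 to 5.85 below 40 and from 7.61 to 8.81 above 40.

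The members not called higher in both fits were *MYC*, *BTG2*, *KLF2*, *EGR4*, *DUSP1* and *NR4A1*. *NR4A1*, an orphan nuclear receptor induced by cAMP and calcium, had 111, 108 and 297 TPM below 40 and 119, 83.6, 249 and 178 TPM above 40, with log2 fold changes of -0.09 and -0.02 (adjusted p = 0.93 and 0.99). *DUSP1*, a phosphatase of MAP kinases, had 10.8, 6.81 and 309 TPM below 40 and 178, 319.6, 272 and 439 TPM above 40 and was called over 7 libraries only. *MYC*, a growth-promoting transcription factor, had 0.111, 9.93 and 22.1 TPM below 40 and 98.0, 112, 99.4 and 181 TPM above 40. Of the 3 NR4A receptors, *NR4A2* and *NR4A3* were called higher and *NR4A1* was not, and the difference between the receptors was not tested.

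Part of the chaperones of the endoplasmic reticulum were higher above 40. Of 22 members of the ER stress list 7 were called higher in both fits (31.8%), namely *HSPA5*, *HSP90B1*, *HERPUD1*, *XBP1*, *EIF2AK3*, *DDIT3* and *MANF*, and none was called lower. All 22 had a log2 fold change above 0 over 7 libraries, with a median of 1.33, and the median was 0.89 without PF4. *HSPA5*, which encodes the chaperone BiP, had 646, 564 and 1215 TPM below 40 and 6183, 5353, 6112 and 6619 TPM above 40, with a log2 fold change of 3.08 ± 0.35 (SE) over 7 libraries and 3.05 ± 0.36 without PF4 (adjusted p = 1.0e-15 and 7.7e-15). It was 9.54 times higher in PF and 5.24 times higher in SF above 40. *HERPUD1*, which serves degradation of proteins from the endoplasmic reticulum, had 199, 166 and 167 TPM below 40 and 605, 949.9, 785 and 1296 TPM above 40, with a log2 fold change of 2.51 ± 0.37 (SE) over 7 libraries and 2.38 ± 0.36 without PF4 (adjusted p = 1.9e-09 and 1.2e-08). *MANF*, a secreted protein of the same response, was highest in PF4, with 142, 166 and 179.6 TPM below 40 and 477, 1305, 475 and 769.8 TPM above 40. *EIF2AK3*, the sensor PERK, had 7.29, 2.91 and 10.1 TPM below 40 and 21.4, 29.8, 42.3 and 41.9 TPM above 40. The edgeR test called 2 members over 7 libraries and none without PF4, where its unadjusted p was below 0.05 for 11 members higher. DESeq2 called 7 members without PF4, and 4 when PF3 was left out as well.

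Of 18 heat shock genes 6 were called higher in both fits (33.3%), namely *HSPA8*, *HSP90AA1*, *DNAJA1*, *DNAJB4*, *BAG3* and *CRYAB*, and the median was 1.05 over 7 libraries and 1.07 without PF4. *HSPA8*, the constitutive cytosolic HSP70, had 1195, 879.9 and 1829 TPM below 40 and 5088, 4569, 5648 and 7927 TPM above 40, with a log2 fold change of 2.28 ± 0.33 (SE) over 7 libraries and 2.28 ± 0.33 without PF4 (adjusted p = 8.1e-10 and 2.2e-09). Its partner *DNAJA1* had 377, 299 and 236 TPM below 40 and 868, 742, 819 and 1363 TPM above 40. *CRYAB*, a small heat shock protein, had 23.3, 28.6 and 8.38 TPM below 40 and 187, 383, 29.9 and 58.8 TPM above 40, and the PF libraries above 40 were higher than the SF libraries. *HSPA1A*, the classical inducible HSP70, did not pass the test, with 1672, 324 and 2529.7 TPM below 40 and 2353, 1161, 2470.3 and 3021 TPM above 40 and log2 fold changes of 0.74 and 0.88 (adjusted p = 0.61 and 0.6). By edgeR 1 member was called over 7 libraries and none without PF4, where 7 had an unadjusted p below 0.05. For *HSPA1A* PF1 lay above PF4 and SF1 above SF2, and its reads are hard to divide from near-identical HSP70 copies.

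Genes of the amino acid response were partly higher, with 4 of 24 called in both fits (16.7%), namely *ATF4*, *ASNS*, *DDIT4* and *SLC38A2*. The median was 1.27 over 7 libraries and 0.71 without PF4. *SLC38A2*, a sodium-coupled neutral amino acid transporter, had 16.1, 28.7 and 23.7 TPM below 40 and 341, 303, 406 and 624 TPM above 40, with a log2 fold change of 4.26 ± 0.39 (SE) over 7 libraries and 4.36 ± 0.40 without PF4 (adjusted p = 4.4e-24 and 8.9e-25). *ATF4* itself had 98.4, 147 and 119.6 TPM below 40 and 293, 388, 323 and 662 TPM above 40, with log2 fold changes of 1.89 and 1.84 (adjusted p = 4.5e-04 and 0.0014). *DDIT4*, an inhibitor of mTORC1, had 128, 155 and 332 TPM below 40 and 484, 228, 560.4 and 667 TPM above 40, and PF4 lay under SF1. The classes did not overlap for *SLC38A2* and *ATF4*. By edgeR 1 member was called over 7 libraries and none without PF4, where the unadjusted p was below 0.05 for 9 members higher and 2 lower. The DESeq2 count over 7 libraries fell from 7 to 4 without PF2 and without SF3, and the count of 5 without PF4 fell to 3 when PF3 or SF1 was left out too.

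Of 23 genes of the p53 response and apoptosis list 5 were called higher in both fits (21.7%), and the median was 0.39 over 7 libraries and 0.11 without PF4. They included *CDKN1A*, *GADD45A* and *PMAIP1*, described above, and *BCL2L11*, a proapoptotic BH3 protein. *BCL2L11* had 6.57, 2.15 and 7.15 TPM below 40 and 18.5, 16.5, 17.0 and 33.3 TPM above 40, with a log2 fold change of 2.53 ± 0.59 (SE) over 7 libraries and 2.47 ± 0.65 without PF4 (adjusted p = 9.2e-04 and 0.0052). The canonical feedback target *MDM2* had 25.7, 18.7 and 15.2 TPM below 40 and 19.6, 24.5, 18.5 and 26.9 TPM above 40, with log2 fold changes of 0.41 and 0.35 (adjusted p = 0.67 and 0.86). By edgeR 2 members were called over 7 libraries and none without PF4, where 5 had an unadjusted p below 0.05 in the higher direction and 1 in the lower. The 5 DESeq2 calls without PF4 fell to 2 when PF3 was left out too and to 3 when SF1 was.

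NF-kB targets and cytokines changed in both directions and depended on single libraries. Of 21 members 8 were called higher in both fits (38.1%) and 2 lower (9.52%), with a median of 2.90 over 7 libraries and 2.51 without PF4, but without PF3 and PF4 only 2 were called higher, against 9 without PF4 alone. By edgeR no member was called, with an unadjusted p below 0.05 for 10 members over 7 libraries and 9 without PF4, all higher. *PTGS2*, the prostaglandin synthase induced at ovulation, had 4.64, 14.3 and 2.30 TPM below 40 and 367, 75.4, 19.9 and 49.3 TPM above 40, with a log2 fold change of 4.47 ± 0.71 (SE) over 7 libraries and 4.78 ± 0.65 without PF4 (adjusted p = 5.9e-08 and 7.0e-11). *CXCL2* had 0, 0 and 0 TPM below 40 and 76.2, 13, 0.453 and 1.92 TPM above 40, and its highest library was PF3. It was called over 7 libraries also without PF3, but its call without PF4 was lost when SF2 or SF3 was left out too. *CXCL8*, a neutrophil chemokine, had counts in PF3 alone, at 0, 0 and 0 TPM below 40 and 102, 0, 0 and 0 TPM above 40, and its call rests on that library. *CCL2*, a monocyte chemokine, had counts in SF1 alone, with 0, 0 and 58.3 TPM below 40 and 0, 0, 0 and 0 TPM above 40, and its call as lower rests on SF1.

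Cholesterol synthesis was higher above 40 in part of the pathway. Of 22 members 7 were called higher in both fits (31.8%) and none lower, among them *HMGCS1*, *SQLE*, *CYP51A1*, *SC5D* and *INSIG1*, and the median was 0.67 over 7 libraries and 0.63 without PF4. *INSIG1*, which holds the sterol sensor in the endoplasmic reticulum, had 66.2, 33.9 and 43.9 TPM below 40 and 567, 264, 859 and 1838 TPM above 40, with a log2 fold change of 3.97 ± 0.57 (SE) over 7 libraries and 4.42 ± 0.49 without PF4 (adjusted p = 7.6e-10 and 1.8e-16). *CYP51A1*, the lanosterol demethylase, had 13.4, 11.9 and 15.0 TPM below 40 and 89.1, 45.6, 90.4 and 326 TPM above 40, with a log2 fold change of 3.16 ± 0.59 (SE) over 7 libraries and 3.52 ± 0.56 without PF4 (adjusted p = 7.1e-06 and 8.6e-08). *SC5D*, a sterol desaturase late in the pathway, had 39.8, 25.2 and 37.6 TPM below 40 and 164, 153, 205 and 563 TPM above 40. SF3 was the highest library for each of these 3 genes, and the libraries below 40 were under every library above 40. By edgeR no member was called, with an unadjusted p below 0.05 for 9 members over 7 libraries and 7 without PF4, all higher. The list took 0.220, 0.203 and 0.165% of the gene counts below 40 and 0.451, 0.228, 0.451 and 1.15% above 40.

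RNA-binding proteins also differed. Of 36 splicing factors 6 were called higher in both fits (16.7%), namely *SRSF2*, *SRSF3*, *HNRNPA1*, *HNRNPH1*, *HNRNPK* and *CLK4*, with a median of 0.67 and 0.68. *CLK4*, a kinase of SR proteins, had 64.2, 70.9 and 74.3 TPM below 40 and 163, 138, 211 and 261 TPM above 40, with a log2 fold change of 1.55 ± 0.29 (SE) over 7 libraries and 1.64 ± 0.28 without PF4 (adjusted p = 6.4e-06 and 1.1e-06). *SRSF3*, an SR protein, had 190.2, 246 and 306 TPM below 40 and 529, 512, 776 and 1057 TPM above 40. By edgeR no splicing factor was called, with an unadjusted p below 0.05 for 17 higher and 1 lower over 7 libraries and for 15 higher without PF4. The 7 DESeq2 calls without PF4 became 2 when PF3 was left out too, 4 without SF1 and 12 without SF2. Of 34 genes for mRNA storage and decay 4 were called higher (11.8%), namely *CPEB2*, *YBX3*, *ZFP36L1* and *ZFP36L2*. *CPEB2*, a regulator of cytoplasmic polyadenylation, had 2.66, 4.43 and 2.40 TPM below 40 and 12.6, 27.5, 29.5 and 42.8 TPM above 40, and *ZFP36L2*, which destabilises AU-rich mRNAs, had 213, 215 and 398 TPM below 40 and 431, 602, 786 and 1149.7 TPM above 40. The 4 genes given with their values did not overlap between the classes. By edgeR no gene for mRNA storage and decay was called, with an unadjusted p below 0.05 for 9 higher and 1 lower over 7 libraries and 8 and 1 without PF4, and the 4 DESeq2 calls without PF4 fell to 1 when PF3 was left out too.

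TGF-beta and BMP signalling, which acts between oocyte and granulosa cells, had 5 of 31 members called higher in both fits (16.1%), with a median of 0.55 over 7 libraries and 0.30 without PF4. They were the BMP targets *ID1*, *ID2* and *ID4*, the inhibitor *SMAD7* and the ligand *BMP2*. *ID1* had 47.2, 105 and 200.2 TPM below 40 and 777, 349, 519 and 869 TPM above 40, and *ID4* had 9.13, 8.0 and 5.35 TPM below 40 and 27.6, 37.8, 18.2 and 22.6 TPM above 40. *BMP2* was highest in PF4, with 1.66, 4.50 and 1.78 TPM below 40 and 11.6, 87.7, 9.20 and 10.5 TPM above 40. By edgeR 1 member was called over 7 libraries and none without PF4, where 5 had an unadjusted p below 0.05. The 5 DESeq2 calls without PF4 fell to 1 when PF3 was left out too, and to 3 when SF1 or SF3 was. Hippo pathway genes and targets of YAP had 4 of 22 called (18.2%), *CCN1*, *CCN2*, *YAP1* and *AMOTL2*, of which *CCN1* and *CCN2* are also immediate early genes. *CCN2*, a secreted matricellular protein, had 6.52, 23.9 and 7.71 TPM below 40 and 66.8, 876, 169.6 and 557 TPM above 40, and *AMOTL2*, which binds YAP at junctions, had 8.05, 5.67 and 8.48 TPM below 40 and 19.5, 47.9, 53.8 and 136 TPM above 40. The 7 Hippo calls over 7 libraries fell to 4 without PF4 or SF1, and the 4 without PF4 fell to 0 when SF1 was left out too and to 2 when SF3 was. By edgeR no Hippo gene was called, with an unadjusted p below 0.05 for 7 higher over 7 libraries and 6 without PF4.

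Smaller numbers were called in other stress and signalling lists. For hypoxia 3 of 18 were higher (16.7%), among them *VEGFA*, the angiogenic growth factor, with 0.423, 2.15 and 14.2 TPM below 40 and 46.0, 39.1, 50.5 and 119 TPM above 40, and *ADM*, a vasodilating peptide, with 202, 357 and 372 TPM below 40 and 690.2, 687, 1055 and 1926 TPM above 40. For glutathione and NRF2 3 of 29 were higher (10.3%), among them *HMOX1*, haem oxygenase, with 22.9, 49.7 and 120.0 TPM below 40 and 394, 217, 484 and 596 TPM above 40, and *SRXN1*, which repairs peroxiredoxins, with 0.998, 0.137 and 1.96 TPM below 40 and 10.2, 21.1, 11.4 and 25.5 TPM above 40. Of 30 genes of PI3K, AKT and mTOR 2 were called higher in both fits (6.67%), with a median of 0.41 over 7 libraries and 0.24 without PF4. Of 19 insulin response genes 1 was called (5.26%), with medians of 0.68 and 0.29, and edgeR called no member of either list. *IRS2*, the insulin receptor substrate, is on both lists and had 0.589, 0.385 and 0.859 TPM below 40 and 4.55, 2.38, 4.84 and 7.90 TPM above 40. The other PI3K gene, *PIK3R1*, a regulatory subunit of PI3K, had 43.9, 45.2 and 64.6 TPM below 40 and 102, 125, 172 and 488 TPM above 40. Of 20 cAMP and FSH response genes *SGK1*, which is also on the immediate early list, and *CITED2* were called higher (10%), against 2.41% of all genes. *CITED2*, a cofactor of CBP, had 27.6, 67.5 and 95.7 TPM below 40 and 275, 446, 472 and 1121 TPM above 40. Each of these 7 genes was lowest in PF1 or PF2, and each was higher in every library above 40 than in any below. By edgeR no member of the hypoxia, NRF2 or cAMP lists was called, with an unadjusted p below 0.05 over 7 libraries for 7 hypoxia, 6 NRF2 and 3 cAMP genes higher and 1 cAMP gene lower. Without PF4 this held for 4 hypoxia, 5 NRF2 and 3 cAMP genes higher and for 1 NRF2 and 1 cAMP gene lower. Over 7 libraries the hypoxia calls fell from 5 to 3 without PF2, PF4 or SF1. Without PF4 they fell from 3 to 2 when PF3 or SF1 was left out too, and rose to 6 without SF2. In the fits without PF4 that also left out SF1 or SF2, 1 hypoxia gene was called lower. Without PF4, leaving out PF3 took the NRF2 calls from 3 to 1, and leaving out PF3 or SF3 took the cAMP calls from 2 to 1.

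A few genes stood alone within their lists. *FOXJ1*, the master factor of motile cilia, had 0, 0 and 4.24 TPM below 40 and 65.4, 40.2, 51.4 and 215 TPM above 40, while 1 of 18 genes of the motile cilium list was called higher in both fits. *EZH2*, the methyltransferase of polycomb complex PRC2, had 3.99, 3.43 and 0.998 TPM below 40 and 19.5, 16.7, 12.3 and 9.91 TPM above 40, with a log2 fold change of 2.90 ± 0.39 (SE) over 7 libraries and 3.07 ± 0.44 without PF4 (adjusted p = 2.1e-11 and 1.2e-09), and was the only member called of 25 chromatin genes (4.0%). *FAU*, a ribosomal protein gene, had 685, 701 and 416 TPM below 40 and 1792, 1085, 1294 and 1646 TPM above 40, and was the only one called of 77 cytosolic ribosomal genes (1.3%), whose median was 0.08 and 0.13. *HEY1*, a Notch effector, had 23.8, 31.9 and 8.26 TPM below 40 and 85.4, 66.1, 47.1 and 64.3 TPM above 40. *HEY1* did not stand alone, since *HES4* was called higher too and *MFNG* lower. The higher calls were thus 2 of 19 Notch genes (10.5%), against 2.41% of all genes. Of the ribosomal protein genes 10.4% were lower and 2.6% higher above 40 without overlap, against 5.74 and 4.88% of all genes, and *RPS29* had 1485, 1359.5 and 1918 TPM below 40 and 1729.9, 1456, 2615 and 1937 TPM above 40.

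**Figure D2:**
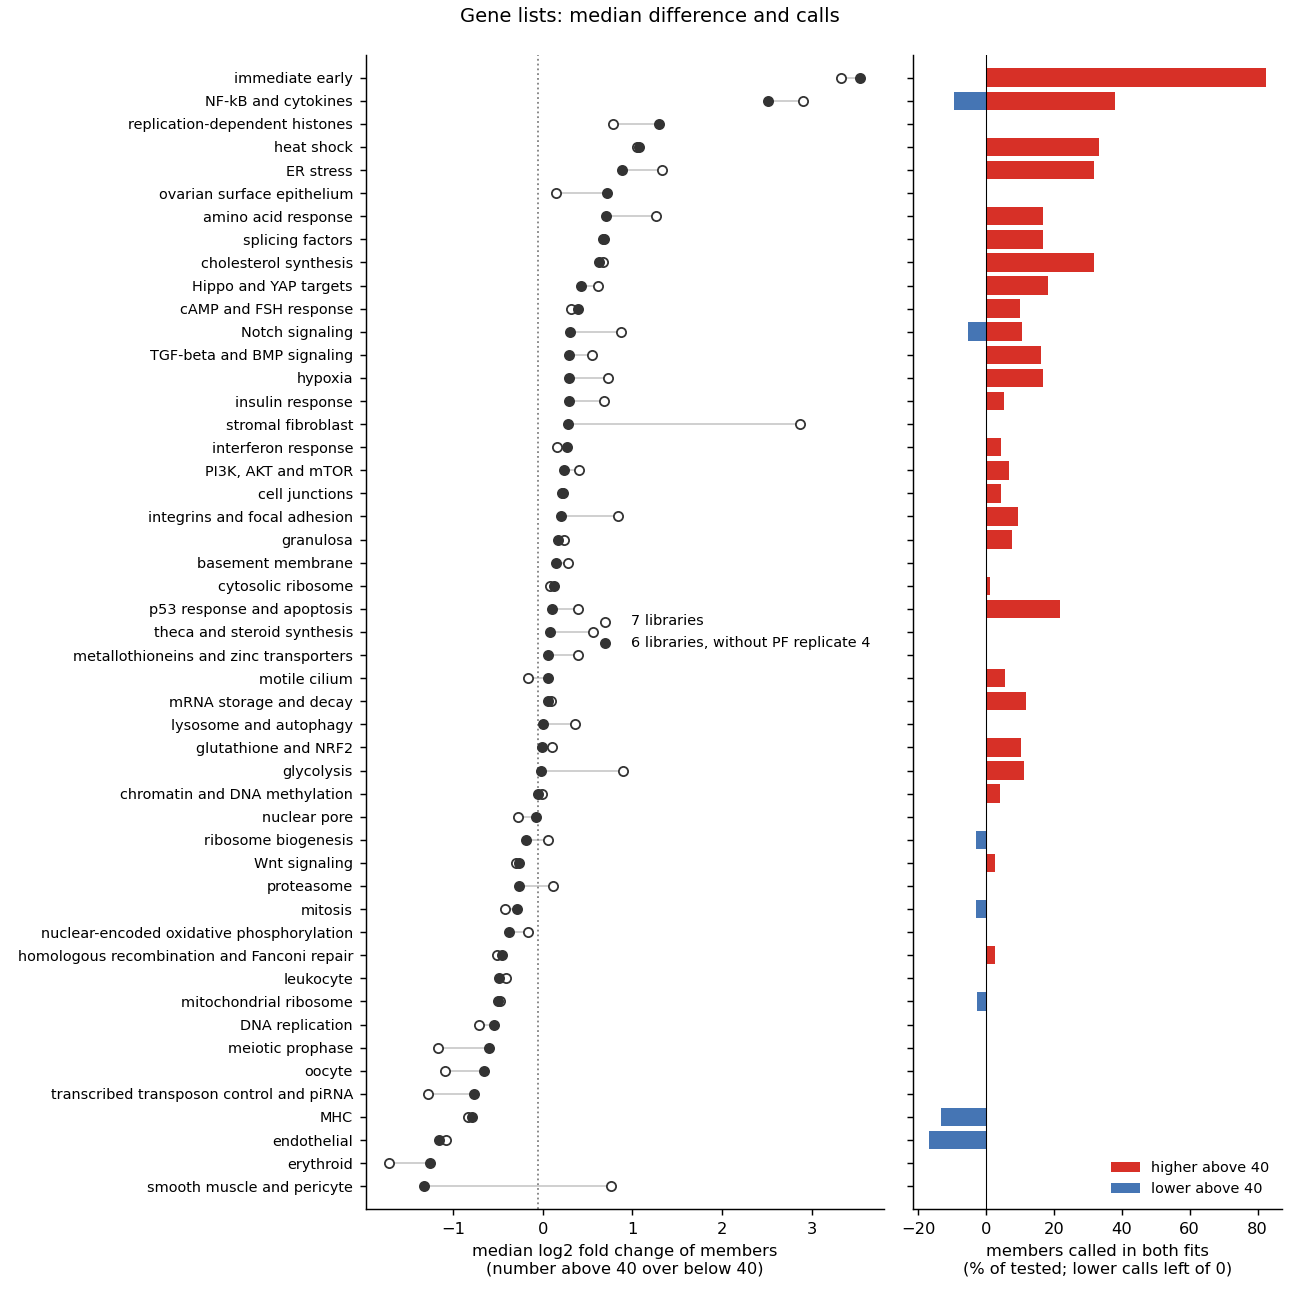
For 49 gene lists, the left panel gives the median log2 fold change above over below 40 with all 7 libraries (open) and without PF4 (filled), with a dotted line at the median of all genes without PF4, and the right panel gives the percentage of members called higher or lower in both fits. Immediate early genes stand furthest to the right with 82.4% called higher, the stromal fibroblast list falls from 2.87 to 0.28 without PF4, and the oocyte list lies at −1.09 and −0.65 with no member called.

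**Figure D3:**
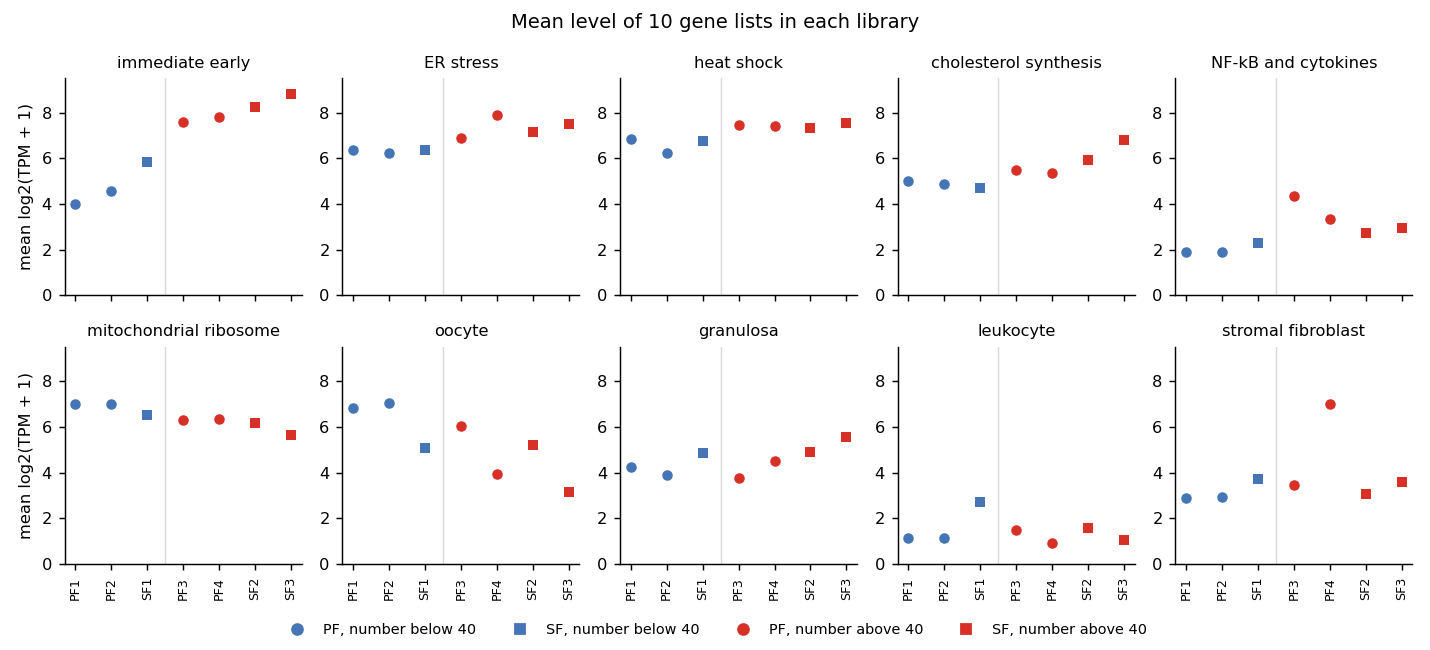
Mean log2(TPM + 1) over the members of 10 gene lists in each library, with libraries below 40 in blue and above 40 in red, PF as circles and SF as squares. The immediate early list reaches 3.99 to 5.85 below 40 and 7.61 to 8.81 above 40, and PF4 lies apart for the stromal fibroblast list.

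Genes called lower above 40 were of another kind. Of the 178 genes called lower in both fits only 60 did not overlap between the classes, and 97 had no count in any library above 40. Of these, 93 had counts in SF1 alone, at 0.152 to 58.3 TPM with a median of 0.926 TPM. Over all genes, between 142 and 334 genes had counts in a single library, with 334 in SF1 and 310 in SF2. A call for such genes rests on 1 library, and they included *PECAM1* and *EGFL7* of endothelium, at 0.997 and 1.06 TPM in SF1, and *BOLA-DQA5* and *MFNG*. The count of lower calls moved with single libraries too, from 309 to 49 without PF1, 66 without PF2, 102 without SF3 and 601 without PF3.

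**Figure D4:**
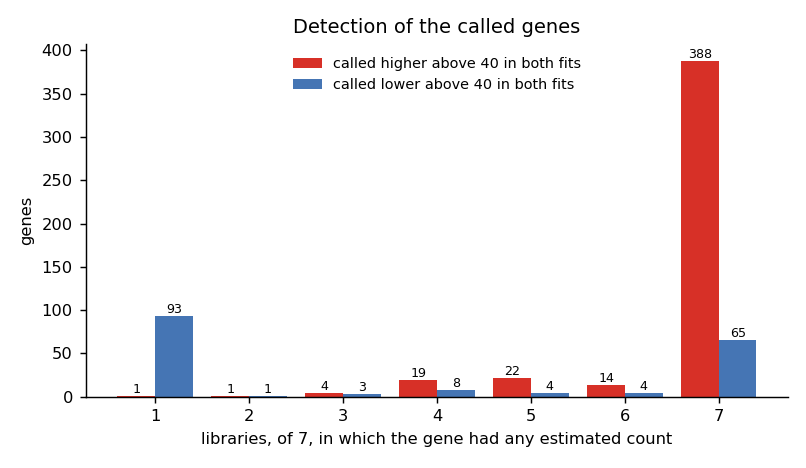
Number of genes called higher (449) and lower (178) in both fits, by the number of libraries, from 1 to 7, in which the gene had counts. Most genes called higher (388) were counted in all 7 libraries, whereas 93 of the genes called lower were counted in 1 library and 65 in all 7.

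The 65 genes called lower that had counts in every library had median log2 fold changes of −1.49 over 7 libraries and −1.39 without PF4, and 42 of them did not overlap. They were spread over unrelated functions. *ZFP3*, a zinc finger protein, had 12.4, 17.6 and 13.1 TPM below 40 and 1.20, 1.59, 2.32 and 2.42 TPM above 40, with a log2 fold change of -2.87 ± 0.49 (SE) over 7 libraries and -2.88 ± 0.58 without PF4 (adjusted p = 5.9e-07 and 4.7e-05). *TAFA2*, a secreted chemokine-like protein, had 20.2, 21 and 4.54 TPM below 40 and 3.31, 3.05, 1.26 and 0.759 TPM above 40, with a log2 fold change of -2.32 ± 0.33 (SE) over 7 libraries and -2.25 ± 0.38 without PF4 (adjusted p = 8.1e-10 and 5.9e-07). PF1 and PF2 were far above all other libraries for *TAFA2*, while for *ZFP3* SF1 lay between PF1 and PF2. *NR1I2*, the xenobiotic receptor PXR, had 15.1, 13.1 and 4.65 TPM below 40 and 0.440, 1.69, 1.23 and 0.176 TPM above 40. *OMA1*, a protease of the inner mitochondrial membrane, had 54.4, 36.4 and 14.6 TPM below 40 and 1.34, 9.85, 7.82 and 3.09 TPM above 40. *DEAF1*, a transcription factor, had 18.6, 15.0 and 22.8 TPM below 40 and 2.42, 7.63, 7.15 and 2.93 TPM above 40, and *MED7*, a Mediator subunit, had 68.1, 59.2 and 39.9 TPM below 40 and 6.16, 18.8, 25.5 and 13.7 TPM above 40.

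The other genes that the rule named as lower were *TMEM121*, *LRFN3*, *BICDL2* and *TCEANC*, and by the edgeR order *CCNO*, *PPP1R3D*, *RHOT2* and *THSD1*. *CCNO*, a cyclin of multiciliated cells and oocytes, had 116, 129 and 31.6 TPM below 40 and 40, 7.14, 14.1 and 8.56 TPM above 40, and *PPP1R3D*, a glycogen-targeting subunit of protein phosphatase, had 53.4, 65.4 and 11.3 TPM below 40 and 17.3, 10.1, 4.87 and 2.98 TPM above 40. Both were highest in PF1 and PF2, and SF1 lay among the libraries above 40. *RHOT2*, a GTPase of mitochondrial transport, had 70.1, 74.3 and 38.0 TPM below 40 and 14.3, 36.5, 19.5 and 12.1 TPM above 40 and was called only without PF4. *PSMB8*, an immunoproteasome subunit, had counts in all 3 libraries below 40 and in none above, with 12.9, 9.11 and 8.39 TPM below 40 and 0, 0, 0 and 0 TPM above 40.

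Mitochondrial and cell cycle lists leaned lower without many calls. Of 76 mitochondrial ribosomal genes 2 were called lower in both fits (2.63%), *MRPL48* and *MRPS18B*, but only 10.5% of the list had a log2 fold change above 0 over 7 libraries and 6.58% without PF4, and the median was −0.48 and −0.50. Without overlap, 16 of the 76 were lower above 40 (21.1%), against 5.74% of all genes. *MRPS18B* had 211, 205 and 73.3 TPM below 40 and 73.4, 65.7, 52.4 and 28.0 TPM above 40, and SF1 lay within the range of the libraries above 40. By edgeR no member was called, with an unadjusted p below 0.05 for 10 lower over 7 libraries and 14 without PF4. The DESeq2 count of 4 lower over 7 libraries fell to 0 without PF1 or PF2 and to 1 without SF1 or SF3, and it rose to 9 without PF3. The count of 3 without PF4 became 0 when PF2, PF3, SF1 or SF3 was left out too, 1 without PF1 and 6 without SF2. No gene of nuclear-encoded oxidative phosphorylation was called in both fits, with a median of −0.16 and −0.38. Without PF4, DESeq2 called 3 of 74 lower, and edgeR called none in either fit. Without overlap, 14 of the 74 were lower above 40 (18.9%), against 5.74% of all genes. The DNA replication list had a median of −0.71 and −0.54 with no call in both fits, and *MCM7*, a helicase subunit, had 182, 157 and 65.2 TPM below 40 and 57.6, 68.1, 56.1 and 42.5 TPM above 40. Of 33 mitosis genes only *NUF2*, a kinetochore subunit, was called lower, with 106, 91.2 and 31.8 TPM below 40 and 39.2, 29.2, 20 and 13.7 TPM above 40.

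Transcript length moved with the comparison. Among protein-coding genes divided by length into 4 bins of equal size, the median log2 fold change rose from −0.22 in the shortest to −0.10, −0.00 and 0.26 in the longest over 7 libraries, and from −0.24 to −0.19, −0.09 and 0.12 without PF4. The share called higher in both fits was 2.01, 3.42, 3.64 and 4.56% in the same order. The part of length in the levels of the mitochondrial lists was not tested.

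Markers of cell types were compared to see whether the classes held the same cells. The 7 oocyte markers summed to 1322 to 3551 TPM below 40 and 148 to 1773 TPM above 40, with PF4 at 274 and SF3 at 148 TPM. None of 25 oocyte genes was called in both fits, although the median was −1.09 over 7 libraries and −0.65 without PF4 and 8.0 and 12% of the genes had a log2 fold change above 0. *BMP15*, an oocyte growth factor, had 669, 420.4 and 48.6 TPM below 40 and 124, 15.2, 42.7 and 6.79 TPM above 40, with a log2 fold change of -2.06 ± 0.81 (SE) over 7 libraries and -1.42 ± 0.61 without PF4 (adjusted p = 0.13 and 0.22). *FIGLA*, an oocyte transcription factor, had 774, 759 and 279 TPM below 40 and 365, 77.5, 140.5 and 48.4 TPM above 40. Each stage thus had its lowest oocyte transcripts in a library above 40, and the spread within a class was wide. With SF2 also left out of the fit without PF4, 9 of the oocyte genes were called lower, and over 7 libraries 7 were without PF3 and 6 without SF2.

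Granulosa cell markers overlapped between the classes, with 6 markers summing to 1027 to 2038 TPM below 40 and 669 to 2381 TPM above 40. Of 26 granulosa genes 2 were called higher in both fits (7.69%), *KITLG* and *GJA1*. *KITLG*, the ligand of the oocyte receptor KIT, had 13.7, 19.0 and 26.8 TPM below 40 and 39.3, 55.8, 62.1 and 102 TPM above 40, with a log2 fold change of 1.77 ± 0.43 (SE) over 7 libraries and 1.63 ± 0.47 without PF4 (adjusted p = 0.0014 and 0.015). *GJA1*, the gap junction protein connexin 43, had 193, 148 and 458 TPM below 40 and 329, 376, 868 and 1051 TPM above 40, with a log2 fold change of 1.24 ± 0.27 (SE) over 7 libraries and 1.19 ± 0.26 without PF4 (adjusted p = 1.9e-04 and 3.1e-04). SF1 was above PF3 and PF4 for *GJA1*, whereas *KITLG* did not overlap. *FOXL2*, the factor that maintains granulosa identity, had 98.3, 109 and 189 TPM below 40 and 52.7, 31.2, 126 and 81.5 TPM above 40, and *AMH*, made by granulosa cells of growing follicles, had 12.7, 20.9 and 86.0 TPM below 40 and 13.5, 4.07, 136 and 124 TPM above 40. Neither passed the test.

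Other cell types were present at low or uneven levels. Stromal fibroblast markers summed to 416 to 519 TPM below 40 and to 213 to 604 TPM above 40 without PF4, and *COL1A1* had 5.92, 4.95 and 19.0 TPM below 40 and 7.40, 644, 7.29 and 19.8 TPM above 40. The stromal list had a median of 2.87 over 7 libraries and 0.28 without PF4, and no gene was called in both fits. The 4 endothelial markers summed to 1.49 to 5.71 TPM below 40 and 1.09 to 10.2 TPM above 40, with *PECAM1*, *CDH5* and *KDR* at 0 in some libraries. Leukocyte markers summed to 64.8 to 276 TPM below 40, the highest being SF1, and to 9.0 to 47.4 TPM above 40. *PTPRC* and *CD68* were at 0 in some libraries. Over the 13 genes of the leukocyte list, mean log2(TPM + 1) overlapped, at 1.13 to 2.74 below 40 and 0.91 to 1.58 above. None of these genes was called in either fit. The 4 theca markers summed to 85.3 to 148 TPM below 40 and 115 to 524 TPM above 40. The highest was PF4, and without it the sums above 40 reached at most 232 TPM. Smooth muscle markers, of which 4 were used, summed to 136 to 245 TPM below 40 and 69.2 to 1034 TPM above 40. PF4 was again the highest, and without it the largest sum above 40 was 252 TPM. The 3 surface epithelium markers summed to 123 to 202 TPM below 40 and 30.5 to 206 TPM above 40. Of the erythroid markers *HBB* and *ALAS2* had no counts, and *HBA* had 2.10, 14 and 12.4 TPM below 40 and 18, 14.2, 16.2 and 24.7 TPM above 40. The part of oocyte, leukocyte or stromal transcripts in the difference between the classes was not tested, and the fit without PF4 leaves out the library with high stromal markers.

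Differences were also estimated separately in PF and SF. Over 13703 genes with a mean of 1 TPM or more, the difference in mean log2(TPM + 1) above minus below 40 correlated between PF and SF with a Pearson coefficient of 0.44, and 0.40 without PF4, across genes that are not independent replicates. The signs were the same in 63.3% of these genes and in 62.8% without PF4. Of 603 genes that differed by 2 or more in PF, 463 were also higher above 40 in SF (76.8%), with a median SF difference of 1.13, while 43.4% of all these genes were higher in SF. Of 735 genes lower by 2 or more in PF, 558 were also lower in SF (75.9%), with a median SF difference of −0.61, while 55.4% of all these genes were lower in SF. Without PF4 these shares were 78.3% of 502 genes higher and 64.5% of 459 genes lower, against 43.4 and 55.4% of all genes. The median SF differences were then 1.42 and −0.27.

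**Figure D5:**
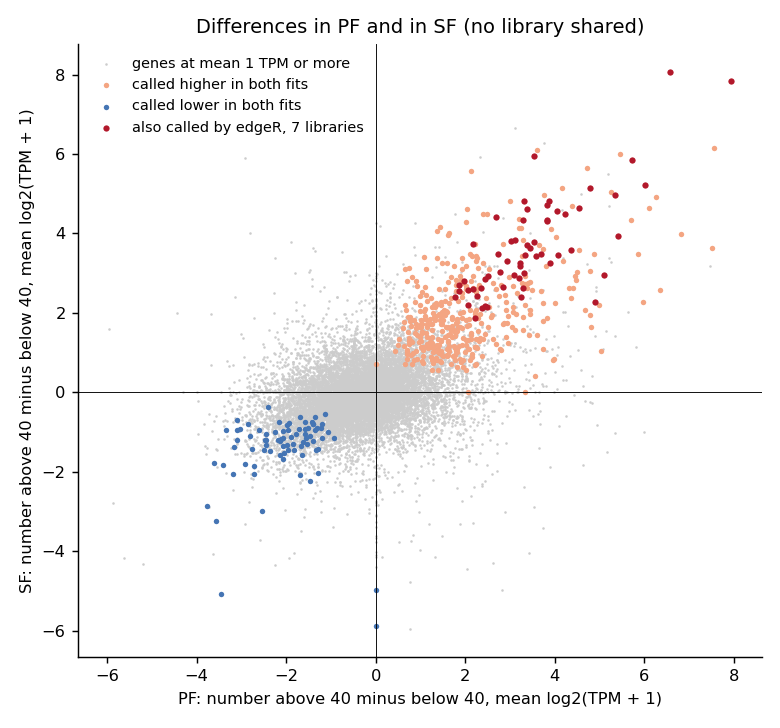
For each gene with a mean of 1 TPM or more, the difference in mean log2(TPM + 1) above minus below 40 within PF on one axis and within SF on the other. The 59 genes called by edgeR lie in the upper right, at 1.77 or more in PF and 1.87 or more in SF, while most genes cluster around 0.

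A direct test of whether the class difference depended on stage gave 134 of 15461 genes with DESeq2 (0.867%), and 204 without PF4, but none with edgeR, where 489 genes had an unadjusted p below 0.05 against 940 with DESeq2. The genes with the smallest interaction p were at or near 0 in some of the libraries of a stage. *RRM2*, a subunit of ribonucleotide reductase, had 0.0449, 0 and 20 TPM below 40 and 12.2, 62.9, 12.3 and 21.9 TPM above 40, so that PF1 and PF2 were near 0 while SF1 lay between SF2 and SF3. *SNCAIP*, a synuclein-interacting protein, had 13.5, 10.3 and 0 TPM below 40 and 0, 0, 3.16 and 2.64 TPM above 40.

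The classes also bear on the comparison of SF with PF, since 1 of 3 SF libraries but 2 of 3 PF libraries were below 40 once PF4 was left out. Without the class in the model 2882 of 15692 genes were called between SF and PF (18.4%), and with it 2940 of 17910 (16.4%), and 2329 genes were called by both. Of the 34 immediate early genes 4 were called higher in SF without the class, where the list's median was 1.74 on the log2 scale, and 13 with it, where the median was 1.29. Of the 449 genes higher above 40, 22 were called higher in SF and 2 lower without the class, and 61 and 15 with it. Their median difference between stages was 1.22 on the log2 scale without the class and 0.59 with it. Of the 178 genes lower above 40, 6 were called higher in SF and 24 lower without the class, and 99 and 27 with it, and their median rose from 3.92 to 18.40, where 93 of these genes had counts in SF1 alone.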

How the data were processed

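Total RNA of pooled follicles was sequenced after SMART-Seq v4 amplification. This chemistry keeps no strand, so that reads of overlapping and antisense genes cannot be told apart. Trim Galore and Salmon are named in the submitters' processing notes, and the study's methods add fastp. For each library the authors deposited a transcript table with estimated counts (not normalized) and TPM (scaled for transcript length and depth). Per transcript, 50205 of 76123 identifiers (66.0%) were matched to genes through a RefSeq gene table, and the rest carried 9.71 to 10.7% of the reads. Estimated counts and TPM were summed per gene, and counts were rounded to whole numbers. No reads or genome were used here.

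Libraries were classed by the number in the library name of the labels, which also give the stage. The test was DESeq2 (1.42.0, R 4.3.3) with stage and class, Benjamini-Hochberg adjustment and a threshold of 0.05, and every adjusted p printed is from it. A fold above a group at 0 was computed against 3 counts per library. The alternatives were the edgeR quasi-likelihood test (4.0.16), TMM factors, a minimum of 10 counts in 3 or more libraries, transcript length offsets, limma (3.58.1) on log2(TPM + 1) or log2(TPM + 0.1), no stage covariate, the library number as a numeric covariate, a replicate block, and leaving out each library. The scripts were tested on simulated data. TPM ranges, sums and figures were made with Python 3.11.15, pandas 2.3.3, numpy 2.4.6 and matplotlib 3.10.9.

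Genes were named by rule. The rule took the 10 largest changes in each direction among genes called in both fits without overlap and with a mean of 5 TPM or more, up to 4 members of each list with the smallest adjusted p without PF4, 10 fixed marker genes, and the 5 smallest p of edgeR in each direction and of the interaction. Other genes named were chosen after their values were seen. The comparison, the lists and the rule were chosen with earlier results of these data known, and some lists share members, such as *CCN1* and *SGK1*. Whether the replicate numbers pair libraries was checked from their deviations from the stage means.

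Some genes that the rule named are not reported here.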

Additional observations from a re-analysis of the deposited data

Results flagged for a closer look

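Several list scores, given as mean log2(TPM + 1), had 1 library far from the others of its group of 4, a distance that chance gives in about 1 of 20 groups. Since 49 list scores and further library measures were looked at, among PF and among the libraries above 40, some such cases arise by chance. The stromal fibroblast score was 7.02 in PF4, apart from both the other PF libraries and the other libraries above 40, and the p53 response and apoptosis score was 4.01 in PF4. SF3 stood apart above 40 for DNA replication (3.85), mitosis (3.24) and nuclear pore (4.48), and PF3 for PI3K, AKT and mTOR (3.57). Among PF libraries, PF4 stood apart for glycolysis (8.30) and for the percentage of counts on unmatched transcripts (9.71%), and PF3 for oxidative phosphorylation (8.0).

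The DESeq2 interaction test called 134 genes, of which 5 were flagged. For these the interaction is given as the SF minus the PF log2 fold change. It was 21.30 for *SNCAIP*, 22.47 for *MTERF1*, −11.15 for *RRM2*, 22.85 for *MAP4K4* and 13.45 for *FOXE1*. All 5 genes were at or near 0 TPM in at least 1 library, and edgeR called none of them.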

How the results depend on the processing

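Counts of calls depended more on the tool than on normalization. Over 7 libraries, where DESeq2 called 964 genes (655 higher, 309 lower), edgeR called 59 (59 and 0), limma 241 (225 and 16) with a pseudocount of 1 and 202 (197 and 5) with 0.1. Lower calls were 150 after the count filter, 118 without the stage covariate and 99 with the numeric library number. Without PF4, where DESeq2 called 881 (580 and 301), edgeR called 4 (4 and 0), limma 264 (244 and 20) and 167 (161 and 6), the fit without stage 553 (116 lower), the numeric library number 575 (79 lower), and the count filter 143 lower. Leaving out 1 library gave 567 to 1484 calls over 7 libraries (518 to 883 higher, 49 to 601 lower) and 352 to 1078 without PF4 (326 to 611 higher, 26 to 467 lower). The interaction gave 0 genes with edgeR and 204 without PF4, against 134. TMM factors and transcript length offsets kept these counts over all genes within 1.5 times.

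Whether the replicate numbers pair the libraries could not be decided. Deviations of PF and SF libraries with the same number correlated at 0.24, −0.03 and 0.37, but PF2 and SF1, whose numbers differ, also correlated at 0.24. PF1 and SF1 share a class, as do PF3 and SF3, so that pairing and class cannot be told apart there. With the replicate block, which by construction estimates the class from replicate 2 alone, 215 genes were called over 7 libraries (180 higher, 35 lower) and 196 without PF4 (173 and 23). The block reversed the log2 fold change over 7 libraries of *SPARC* (−2.02), *ACTA2* (−3.43), *P4HA1* (−0.20), *SLC2A1* (−0.08), *HK2* (−2.11), *DDX21* (−0.03) and *BRCA2* (0.35), and without PF4 of *UPK1B* (−3.25) and *P4HA1* (−0.19). Leaving out 1 library also reversed *PFKP*, which ranged from −4.47 (without PF4) to 1.95 over 7 libraries and from −11.06 to 0.10 without PF4, where *SNCAIP* ranged from −11.41 to 9.94 and *FOXE1* from −7.08 to 6.0, the values without PF4 being highest without PF3 and lowest without SF1.

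The comparison of SF with PF with the class as a covariate was chosen after seeing the data. With 1 SF library below 40, the class difference within SF has no replicate below 40.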

Other observations

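Lists of the germline and of adhesion held few calls. The meiotic prophase list had a median log2 fold change of −1.17 over 7 libraries and −0.60 without PF4 over 17 genes, and the piRNA list −1.28 and −0.76 over 18 genes, with no gene called in both fits. *SYCP3*, of the synaptonemal complex, had 409, 236 and 93.3 TPM below 40 and 177, 33.0, 54.5 and 21.9 TPM above 40, and *MAEL*, which protects the germline from transposons, had 99.0, 52.9 and 16.3 TPM below 40 and 41.8, 6.04, 10.8 and 3.6 TPM above 40. Both were highest in PF1 and PF2 and lowest in SF3 and PF4, the libraries that also held the lowest sums of oocyte markers. Of 21 integrin and focal adhesion genes 2 were called higher in both fits (9.52%). *ITGAV*, a vitronectin receptor subunit, had 27.1, 26.2 and 51.5 TPM below 40 and 41.3, 401, 97.3 and 133 TPM above 40, and *ITGA5*, a fibronectin receptor subunit, had 0, 0 and 0 TPM below 40 and 2.59, 68.5, 0 and 2.19 TPM above 40, so that PF4 was the highest library for both.

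Among repair genes, *RAD54B*, a recombination motor protein, had 0, 0 and 0 TPM below 40 and 4.22, 2.30, 2.53 and 1.83 TPM above 40 and was at least 55.2-fold higher above 40 without PF4. It was the only gene of 36 in its list that was called in both fits (2.78%, against 2.41% of all genes), whose median was −0.51 over 7 libraries and −0.45 without PF4. *FZD7*, a Wnt receptor, was the only gene called of 37 in the Wnt list (2.7%), with 3.56, 2.21 and 0.808 TPM below 40 and 14.4, 5.40, 10.5 and 30.2 TPM above 40. Of the glycolysis list *SLC2A3*, a glucose transporter, and *ALDOA*, an aldolase, were called higher in both fits. *SLC2A3* had 2.82, 20.5 and 77.1 TPM below 40 and 209.9, 298, 306 and 1357 TPM above 40, and SF3 was its highest library.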
